A study of Homo sapiens with 8 samples.

Results

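The genes described here are 36 genes of cholesterol and fatty acid synthesis, listed by symbol and found in all cases among the 46427 symbols of the count and TPM tables. They comprised 7 genes of the mevalonate steps, 12 of the squalene and sterol steps, 5 of fatty acid synthesis and its precursors, 6 of fatty acid desaturation and elongation, and 6 regulators and carriers around SREBP. All 36 passed the filter on low counts, as did 18303 genes in all. RNA came from wild-type cells of the human embryonic stem cell line H7, differentiated towards type 2 alveolar cells (the surfactant-producing cells of the lung) through lung progenitors (21 days of submerged culture), a further 3 days under medium on inserts and 7 days with the apical side exposed to air. The 4 groups were untreated cells and cells given bleomycin, a DNA-breaking drug, at 24, 240 or 480 µg/ml on the apical side for 24 hours, with 2 libraries each. The labels do not say whether the 2 libraries of a group were separate cultures, so p-values measure the spread between libraries, which may be technical. The bleomycin stock given there, 10 µg/ml, is weaker than any dose.

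Cholesterol is built from acetyl-CoA through mevalonate, squalene and a chain of sterol intermediates, and fatty acids are built from the same precursor by carboxylation, elongation and desaturation. Many of these enzyme genes share a regulator, the SREBP transcription factors, which are held in the endoplasmic reticulum by INSIG proteins when sterols are plentiful and are escorted by SCAP to be cleaved when sterols are scarce. In type 2 alveolar cells the fatty acid branch supplies the phospholipids of surfactant.

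Total counts ran from 53431773 to 67715984 per library. Of 12 type 2 alveolar markers, 9 passed the filter on low counts, and SFTPC, SFTPA1 and SFTPA2 had fewer than 10 counts in every library. The other 9 markers of the cell type named in the labels ranged widely in the untreated libraries. The surfactant protein gene SFTPB had 830 and 977 counts, and ABCA3, a lipid transporter of surfactant storage, had 664 and 821. Counts were low for NAPSA (13 and 12), NKX2-1 (46 and 59) and LAMP3 (54 and 58), and highest for LPCAT1 (6668 and 6747). The summed level of the 12 markers was 124 and 133 TPM in the untreated libraries (TPM is a level scaled to gene length and to a common library total) against 60527 and 65056 TPM for 14 hepatic markers and 2027 and 2114 TPM for 13 intestinal ones. In such bulk RNA, fewer cells of a type and less RNA per cell cannot be told apart. The libraries at 480 µg/ml lay furthest apart within their group: the median member differed 1.26-fold between them, against 1.07- to 1.11-fold in the other groups, and the median of all tested genes differed 1.29-fold.

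Per length, the untreated cells expressed SCD, which makes monounsaturated fatty acids, most highly of the 36 (319 and 408 TPM), followed by DHCR7, the last enzyme of a route to cholesterol (311 and 325 TPM), and MSMO1, which oxidizes sterol methyl groups (243 and 277 TPM). The lowest levels were those of ELOVL4, an elongase of very long fatty acids (1.61 and 1.64 TPM), MVK, mevalonate kinase (8.78 and 9.02 TPM), and HSD17B7, a sterol reductase (10.0 and 10.7 TPM). SREBF2, which encodes the SREBP that mainly drives sterol genes, stood at 145 and 149 TPM. SREBF1, which encodes the forms tied more to fatty acid genes, stood at 12.9 and 14.7 TPM.

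At 480 µg/ml 19 of the 36 genes fell and 4 rose against untreated cells, while of all tested genes 13.9% fell and 13.9% rose (edgeR, adjusted p under 0.05 over all genes). At 240 µg/ml 14 fell and 2 rose, against 5.17% of all tested genes lower and 5.16% higher. At both doses the share of the 36 genes that rose was near that of all tested genes. At 24 µg/ml no member was called by edgeR, as 0% of all tested genes were, and 10 of the 36 had an unadjusted p under 0.05 against 3.31% of all tested genes. DESeq2 called 0 members at that dose too. The median log2 fold change of the 36 genes was -0.19, -0.39 and -0.44 at the 3 rising doses, where that of all tested genes was 0.01 at each. The 3 comparisons share the untreated libraries.

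**Figure D1:**
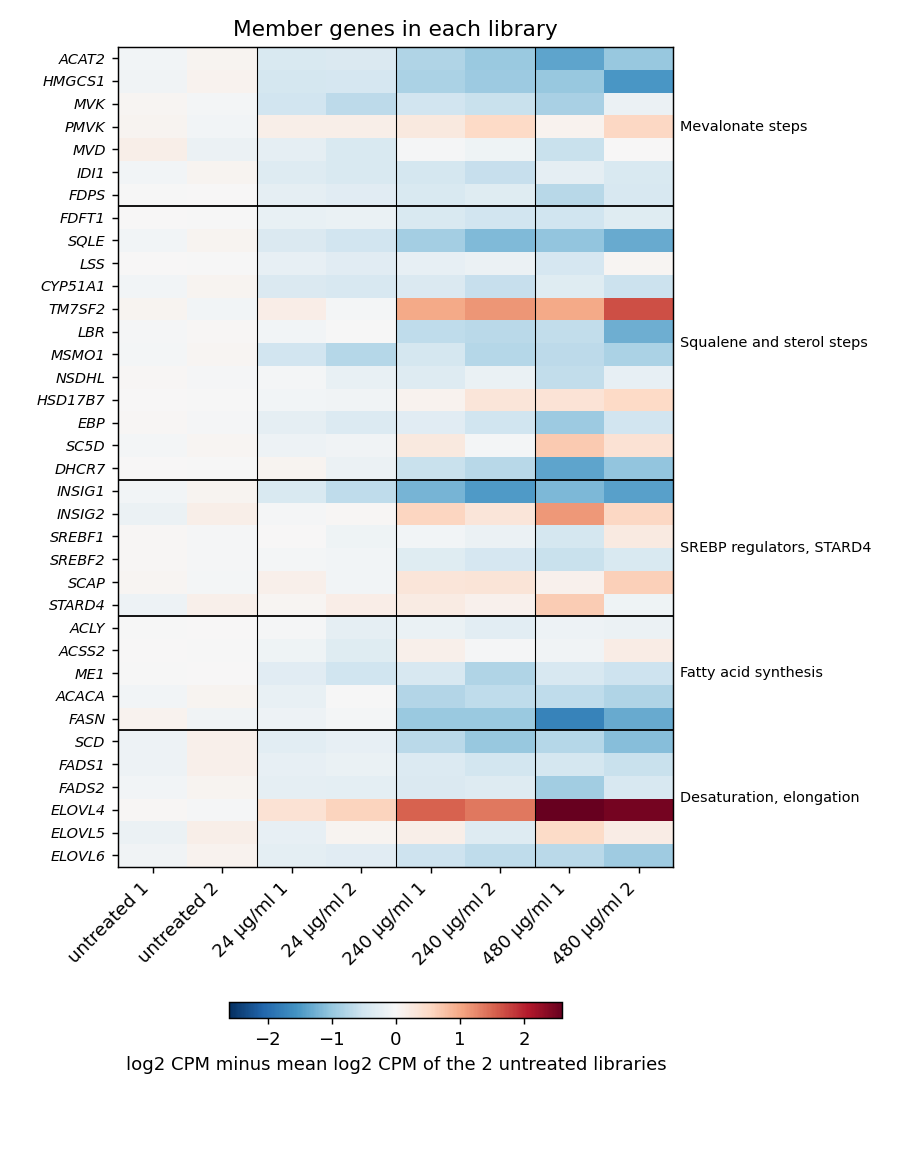
Level of each of the 36 genes (rows, grouped by role) in each of the 8 libraries (columns), as log2 CPM minus the mean log2 CPM of the 2 untreated libraries. Blue is lower and red higher than untreated. FASN, INSIG1, SQLE, HMGCS1 and ACAT2 are among the lowest rows at 240 and 480 µg/ml, and DHCR7 at 480 µg/ml. By the mean of the 2 libraries, TM7SF2 and ELOVL4 are the highest rows at both doses.

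The bases before the transcription starts of the members were searched for 4 short motifs of factors that bind such promoters. Members were counted whether they fell, rose or were not called, and a link between motifs and changes was not tested. RefSeq windows of GRCh38.p14, from 250 bases before to 50 after a start, were matched for 32 of the 36 genes, and ACAT2, FASN, FDFT1 and SQLE were not matched. The sterol response element, searched as TCACNCCAC, was found in 1 of 32 genes, SREBF2, and in 1.45% of tested genes with a window. The NF-Y box CCAAT was found in 23 of 32 genes (71.9%) against 42.3% of tested genes, the SP1 box GGGCGG in 29 of 32 (90.6%) against 72.4%, and the E-box CACGTG in 6 of 32 (18.8%) against 11.8%. Both strands were searched. A gene was counted where any of its windows held the motif. Within a window, 0 pairs of matches to different motifs shared bases, and 8 pairs of matches to the same motif did. A match describes letters and not binding, and other forms of each motif were not searched. The 150 bases before the start are shown for 3 pairs of related genes that moved in opposite directions (INSIG1 and INSIG2, LBR and TM7SF2, ELOVL6 and ELOVL4), for SREBF2 with its sterol response element, and for MSMO1 with 3 NF-Y boxes. They lie at chr7:155297728-155297877, chr2:118088321-118088470, chr11:65111722-65111871, chr22:41832955-41833104 and chr4:165327519-165327668 on the plus strand, and at chr1:225428822-225428971, chr4:110198616-110198765 and chr6:79947554-79947703 on the minus strand. Each is written 5′ to 3′ on the strand of its gene, with matches to the 4 motifs, on either strand, in capitals.
INSIG1: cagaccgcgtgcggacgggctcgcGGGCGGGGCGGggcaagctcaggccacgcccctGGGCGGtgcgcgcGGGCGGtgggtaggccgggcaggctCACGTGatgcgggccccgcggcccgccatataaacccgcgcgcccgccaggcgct
INSIG2: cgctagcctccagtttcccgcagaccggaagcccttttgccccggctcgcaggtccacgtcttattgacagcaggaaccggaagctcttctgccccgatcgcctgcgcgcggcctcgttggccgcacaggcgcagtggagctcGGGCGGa
LBR: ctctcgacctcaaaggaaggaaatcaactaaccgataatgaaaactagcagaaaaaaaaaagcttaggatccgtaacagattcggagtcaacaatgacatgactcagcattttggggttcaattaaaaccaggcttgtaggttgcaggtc
TM7SF2: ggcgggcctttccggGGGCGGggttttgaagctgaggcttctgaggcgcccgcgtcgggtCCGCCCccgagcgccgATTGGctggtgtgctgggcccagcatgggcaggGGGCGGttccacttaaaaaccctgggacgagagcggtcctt
ELOVL6: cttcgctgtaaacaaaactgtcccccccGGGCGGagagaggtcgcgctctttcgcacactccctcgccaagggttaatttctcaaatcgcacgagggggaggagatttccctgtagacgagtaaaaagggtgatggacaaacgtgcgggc
ELOVL4: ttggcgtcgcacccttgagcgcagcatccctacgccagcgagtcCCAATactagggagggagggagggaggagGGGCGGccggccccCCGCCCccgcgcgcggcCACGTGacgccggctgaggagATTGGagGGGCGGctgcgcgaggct
SREBF2: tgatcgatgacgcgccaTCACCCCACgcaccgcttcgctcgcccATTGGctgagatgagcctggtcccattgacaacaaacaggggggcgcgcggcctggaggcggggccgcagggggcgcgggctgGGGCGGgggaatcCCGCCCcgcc
MSMO1: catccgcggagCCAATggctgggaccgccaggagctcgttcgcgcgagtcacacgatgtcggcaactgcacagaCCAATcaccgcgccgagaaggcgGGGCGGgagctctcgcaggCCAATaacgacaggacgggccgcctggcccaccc
The stretches of INSIG1 and ELOVL4 held an E-box, those of INSIG2 and ELOVL6 held 1 SP1 box and no other match, and that of LBR held no match. Genes that fell (INSIG1, MSMO1) and genes that rose (TM7SF2, ELOVL4) both had SP1 boxes in these stretches.

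Among the mevalonate steps, which turn acetyl-CoA into isoprenoid units, 3 of 7 genes fell at 480 µg/ml and 0 rose, and 3 fell at 240 µg/ml. Over all tested genes 13.9% fell at 480 µg/ml and 5.17% at 240 µg/ml. The first enzymes of the route fell most. HMGCS1, which makes the substrate of the route's main control point, had 204 and 231 CPM in the untreated libraries (CPM is counts scaled to a common library size, used here within a gene only), 159 and 161 CPM at 24 µg/ml, 123 and 112 CPM at 240 µg/ml and 109 and 76.0 CPM at 480 µg/ml. Every treated library lay below both untreated ones, and the groups did not overlap from dose to dose. The log2 fold change of HMGCS1 was -0.45 ± 0.17 (SE) at 24 µg/ml (adjusted p = 1), -0.89 ± 0.17 at 240 µg/ml (adjusted p = 0.0167) and -1.23 ± 0.17 at 480 µg/ml (adjusted p = 0.0014).

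ACAT2, the thiolase that joins the first acetyl-CoA units, had 38.2 and 42.2 CPM untreated, 30.6 and 30.8 CPM at 24 µg/ml, 23.3 and 20.4 CPM at 240 µg/ml and 15.4 and 20.2 CPM at 480 µg/ml. Its levels stepped down with each dose without overlap, and the log2 fold change was -0.88 ± 0.15 at 240 µg/ml (adjusted p = 0.0114) and -1.17 ± 0.15 at 480 µg/ml (adjusted p = 0.00109). FDPS, which makes farnesyl diphosphate, had 78.9 and 79.3 CPM untreated, 67.1 and 64.3 CPM at 24 µg/ml, 60.3 and 63.2 CPM at 240 µg/ml and 48.0 and 58.9 CPM at 480 µg/ml, all treated libraries being lower. It was called at 480 µg/ml (-0.56 ± 0.13, adjusted p = 0.0124). IDI1, the isomerase of the isoprenoid units, had 97.9 and 108 CPM untreated, 81.7 and 78.1 CPM at 24 µg/ml, 75.4 and 67.9 CPM at 240 µg/ml and 87.4 and 77.8 CPM at 480 µg/ml, lowest at the middle dose. It fell at 240 µg/ml (-0.53 ± 0.12, adjusted p = 0.0324) and had a log2 fold change of -0.32 ± 0.12 at 480 µg/ml (adjusted p = 0.0863). The genes of the middle of the route were not called at any dose. At 480 µg/ml the log2 fold change of MVK was -0.46 ± 0.21 (adjusted p = 0.145), that of PMVK, phosphomevalonate kinase, 0.33 ± 0.18 (adjusted p = 0.193), and that of MVD, the decarboxylase, -0.26 ± 0.19 (adjusted p = 0.342). The call of FDPS was lost without control replicate 1 (adjusted p = 0.0785) or 2 (adjusted p = 0.0818).

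Of the 12 genes of the squalene and sterol steps, 7 fell and 2 rose at 480 µg/ml, and 5 fell and 1 rose at 240 µg/ml. Of all tested genes 13.9% fell and 13.9% rose at 480 µg/ml, and 5.17% fell and 5.16% rose at 240 µg/ml. The share of these genes that rose at 480 µg/ml was near that of all tested genes. SQLE, the squalene epoxidase, a rate-limiting step, had 120 and 133 CPM untreated, 98.2 and 89.5 CPM at 24 µg/ml, 68.8 and 56.8 CPM at 240 µg/ml and 61.8 and 51.3 CPM at 480 µg/ml. Its 2 higher doses overlapped each other and lay below the rest, with log2 fold changes of -1.01 ± 0.15 at 240 µg/ml (adjusted p = 0.00635) and -1.16 ± 0.15 at 480 µg/ml (adjusted p = 0.000975). DHCR7 (chr11:71428193-71452868, minus strand, GRCh38) had 377 and 369 CPM untreated, 392 and 336 CPM at 24 µg/ml, 250 and 226 CPM at 240 µg/ml and 144 and 183 CPM at 480 µg/ml. The lowest dose overlapped the untreated libraries and the higher doses lay below them, with log2 fold changes of -0.04 ± 0.14 at 24 µg/ml (adjusted p = 1), -0.65 ± 0.15 at 240 µg/ml (adjusted p = 0.0265) and -1.19 ± 0.15 at 480 µg/ml (adjusted p = 0.00085).

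MSMO1 had another course. Its levels were 243 and 259 CPM untreated, 179 and 150 CPM at 24 µg/ml, 184 and 149 CPM at 240 µg/ml and 157 and 142 CPM at 480 µg/ml. All 6 treated libraries lay below both untreated ones and the 3 doses overlapped each other. Against untreated cells the log2 fold change was -0.61 ± 0.15 at 24 µg/ml (adjusted p = 0.777), -0.59 ± 0.15 at 240 µg/ml (adjusted p = 0.036) and -0.75 ± 0.15 at 480 µg/ml (adjusted p = 0.00615), and between 24 and 240 µg/ml it was 0.02 ± 0.14 (adjusted p = 0.949).

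Smaller changes were seen at other sterol steps. EBP, the sterol isomerase, had 69.0 and 66.5 CPM untreated, 57.5 and 53.03 CPM at 24 µg/ml, 55.2 and 47.5 CPM at 240 µg/ml and 35.1 and 47.7 CPM at 480 µg/ml, and fell at 480 µg/ml (-0.71 ± 0.16, adjusted p = 0.0118). FDFT1, squalene synthase, had 152 and 150.4 CPM untreated, 132 and 135 CPM at 24 µg/ml, 114 and 108 CPM at 240 µg/ml and 106 and 121 CPM at 480 µg/ml. It fell at 240 µg/ml (-0.44 ± 0.12, adjusted p = 0.0438) and 480 µg/ml (-0.41 ± 0.12, adjusted p = 0.0283), with the 2 doses overlapping. CYP51A1, the sterol demethylase, had 192 and 214 CPM untreated, 157 and 151 CPM at 24 µg/ml, 155 and 133 CPM at 240 µg/ml and 163 and 137 CPM at 480 µg/ml, overlapping among the doses, and fell at 480 µg/ml (-0.43 ± 0.14, adjusted p = 0.0417). SC5D, the desaturase just before DHCR7, had 167 and 178 CPM untreated, 157 and 162 CPM at 24 µg/ml, 206 and 167 CPM at 240 µg/ml and 277 and 223 CPM at 480 µg/ml. It rose at 480 µg/ml (0.53 ± 0.15, adjusted p = 0.0267), where DHCR7, the next step, fell. LSS, the cyclase (-0.18 ± 0.16, adjusted p = 0.433), NSDHL (-0.41 ± 0.16, adjusted p = 0.0883) and HSD17B7 (0.44 ± 0.15, adjusted p = 0.0542), which act with MSMO1 in removing methyl groups, were not called there. Calls at 480 µg/ml were lost without control replicate 1 or 2 for EBP (adjusted p = 0.0746 and 0.0612), FDFT1 (0.149 and 0.14), CYP51A1 (0.111 and 0.245) and SC5D (0.172 and 0.118), and without control replicate 2 for MSMO1 (0.0558). Leaving out either library of 24 µg/ml also ended those of FDFT1, CYP51A1 and SC5D (adjusted p from 0.0531 to 0.0769), leaving out either library of 240 µg/ml those of FDFT1 and CYP51A1 (0.059 to 0.0649), and leaving out 480 µg/ml replicate 2 that of CYP51A1 (0.0669).

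**Figure D2:**
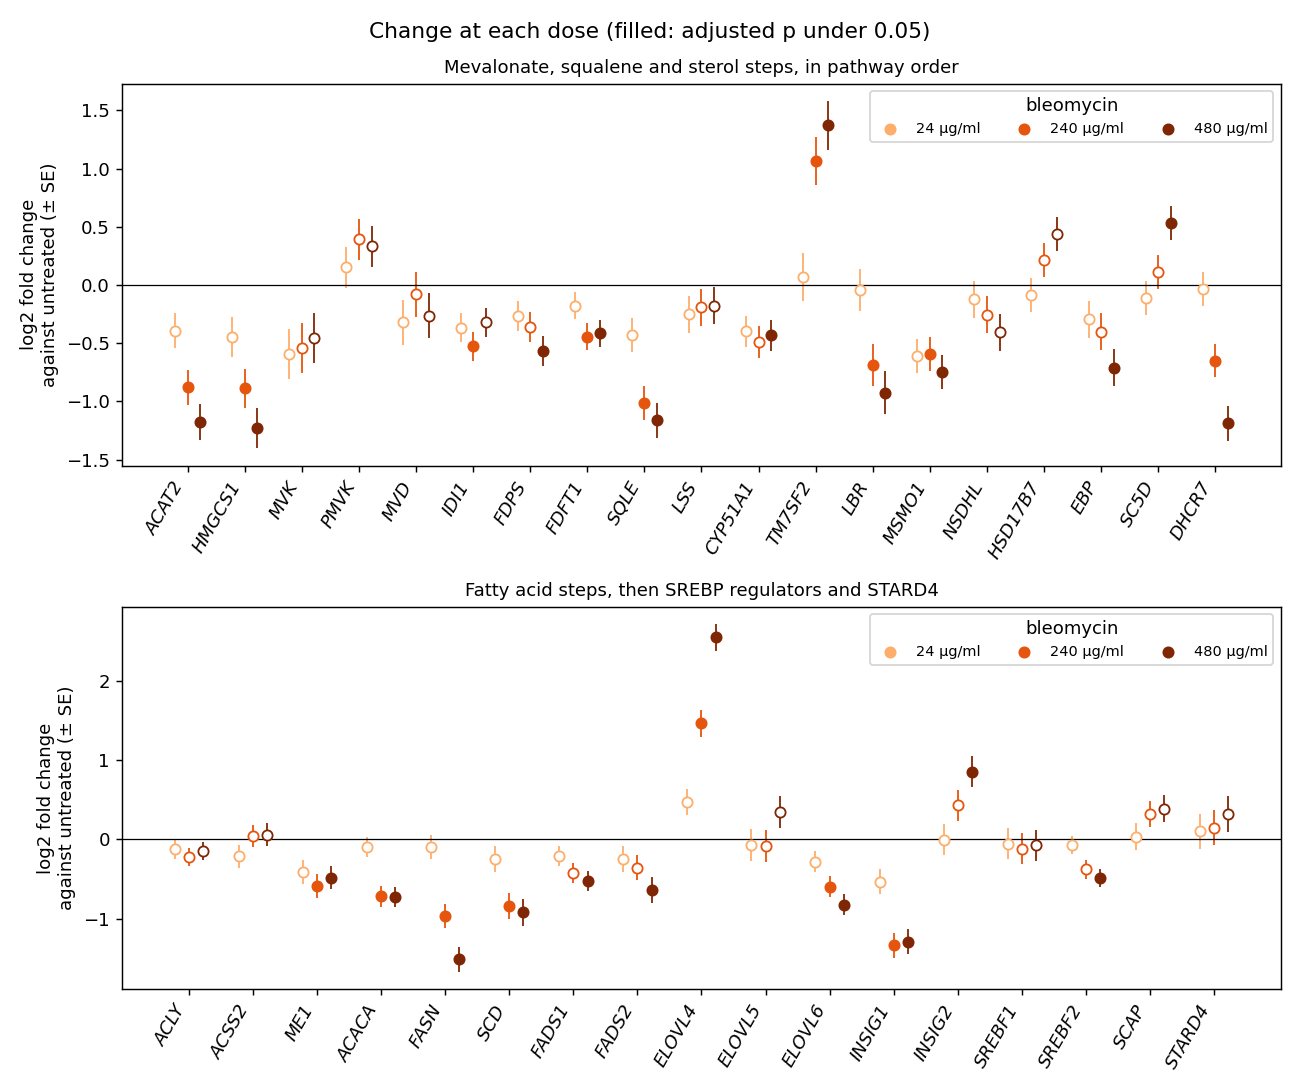
Log2 fold change against untreated cells (y axis, ± SE) for each gene at 24, 240 and 480 µg/ml, with sterol genes in pathway order above and fatty acid genes and regulators below; filled points have an adjusted p under 0.05. ACAT2 and HMGCS1 at the start, SQLE in the middle and DHCR7 at the end of the sterol route fall by over 1 log2 unit at 480 µg/ml. The filled points above 0 belong to TM7SF2, SC5D, INSIG2 and ELOVL4.

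The reductase step after CYP51A1 can be carried out by either of 2 proteins, encoded by LBR and TM7SF2, and these genes moved apart. LBR, which is also the lamin B receptor of the inner nuclear membrane, had 138 and 142 CPM untreated, 134 and 138 CPM at 24 µg/ml, 88.1 and 85.9 CPM at 240 µg/ml and 89.7 and 57.9 CPM at 480 µg/ml. It fell by 0.69 ± 0.18 on the log2 scale at 240 µg/ml (adjusted p = 0.0467) and by 0.92 ± 0.18 at 480 µg/ml (adjusted p = 0.00663). TM7SF2, whose product sits in the endoplasmic reticulum, had 48.7 and 44.3 CPM untreated, 52.2 and 45.1 CPM at 24 µg/ml, 92.1 and 102 CPM at 240 µg/ml and 92.1 and 148 CPM at 480 µg/ml. It rose by 1.06 ± 0.21 (adjusted p = 0.0177) and 1.37 ± 0.21 (adjusted p = 0.00205). Over alternative fits, among them omissions of 1 library, the value at 480 µg/ml ran from 0.99 to 1.66. For both genes the untreated and lowest-dose libraries lay together, and the higher doses lay apart from them. Per length, the ratio of TM7SF2 to LBR was 0.77 and 0.673 in the untreated libraries, 0.844 and 0.717 at 24 µg/ml. For 240 µg/ml the ratio reached 2.27 and 2.58, and for 480 µg/ml 2.27 and 5.57, so TM7SF2 exceeded LBR in all 4 libraries of the higher doses and in none of the others. This pair, like the 2 described next, was set side by side after its values were seen.

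Of the SREBP regulators, INSIG1 and SREBF2 fell and INSIG2 rose at 480 µg/ml, and only INSIG1 of the 6 genes was called at 240 µg/ml. Over all tested genes 13.9% fell and 13.9% rose at 480 µg/ml, and 5.17% fell at 240 µg/ml. INSIG1, an INSIG whose gene is itself an SREBP target, had 45.8 and 50.9 CPM untreated, 36.6 and 30.4 CPM at 24 µg/ml, 21.0 and 17.4 CPM at 240 µg/ml and 21.6 and 18.1 CPM at 480 µg/ml. Its level was lower at 24 µg/ml than untreated and lower again at 240 µg/ml, and the 2 higher doses overlapped. The log2 fold change was -0.53 ± 0.16 (adjusted p = 1), -1.33 ± 0.16 (adjusted p = 0.00303) and -1.28 ± 0.16 (adjusted p = 0.000862) at the 3 rising doses. INSIG2, its paralog with the same retaining function, had 45.9 and 56.4 CPM untreated, 50.001 and 52.3 CPM at 24 µg/ml, 74.5 and 63.2 CPM at 240 µg/ml and 111 and 73.8 CPM at 480 µg/ml. It rose at 480 µg/ml (0.85 ± 0.20, adjusted p = 0.0132), where its 2 libraries differed more than those of any other group. Per length, the ratio of INSIG2 to INSIG1 was 0.862 and 0.98 in the untreated libraries and 4.4 and 3.53 at 480 µg/ml.

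SREBF2 had 343 and 327 CPM untreated, 322 and 317 CPM at 24 µg/ml, 268 and 249 CPM at 240 µg/ml and 224 and 256 CPM at 480 µg/ml. Both libraries of each higher dose lay below both untreated ones, with a log2 fold change of -0.38 ± 0.12 at 240 µg/ml (adjusted p = 0.0744) and -0.48 ± 0.12 at 480 µg/ml (adjusted p = 0.0153). Of 18303 tested genes, 5888 lay below both untreated libraries in this way at 240 µg/ml and 5541 at 480 µg/ml. SREBF1 (-0.07 ± 0.20, adjusted p = 0.816), SCAP (0.39 ± 0.17, adjusted p = 0.111) and the sterol carrier gene STARD4 (0.32 ± 0.22, adjusted p = 0.318) were not called at 480 µg/ml. SCAP had 137 and 127 CPM untreated, 144 and 126 CPM at 24 µg/ml, 164 and 165 CPM at 240 µg/ml and 143 and 202 CPM at 480 µg/ml. SREBF1 had 27.1 and 26.1 CPM untreated, 26.7 and 24.7 CPM at 24 µg/ml, 25.3 and 23.9 CPM at 240 µg/ml and 19.4 and 31.1 CPM at 480 µg/ml. For STARD4 the values were 25.4 and 30.9 CPM untreated, 29.05 and 31.4 CPM at 24 µg/ml, 32.4 and 30.1 CPM at 240 µg/ml and 44.2 and 26.0 CPM at 480 µg/ml. For SREBF1 and STARD4 the libraries of 480 µg/ml lay to both sides of, or overlapped, the untreated ones, while those of SCAP lay above them. So did those of 5820 of the 18303 tested genes. With edgeR fitted to these 2 groups alone, SREBF2 (adjusted p = 0.0799) and INSIG2 (adjusted p = 0.0533) were not called. By limma on TPM, INSIG2 was not called either (adjusted p = 0.0776). The call of SREBF2 was lost without control replicate 1 or 2 (adjusted p = 0.112 and 0.0762), and that of INSIG2 without control replicate 1 (adjusted p = 0.119).

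Of the 5 genes of fatty acid synthesis and its precursors, 3 fell and 0 rose at both 240 and 480 µg/ml. Over all tested genes 5.17% and 13.9% fell at these doses. FASN, the fatty acid synthase (chr17:82078333-82098332, minus strand, GRCh38), had the lowest log2 fold change of the 36 genes at 480 µg/ml. It had 431 and 381 CPM untreated, 369 and 390 CPM at 24 µg/ml, 207 and 208 CPM at 240 µg/ml and 122 and 163 CPM at 480 µg/ml. The lowest dose overlapped the untreated libraries, and each higher dose lay below the one before. Its log2 fold change was -0.10 ± 0.15 at 24 µg/ml (adjusted p = 1), -0.97 ± 0.15 at 240 µg/ml (adjusted p = 0.00829) and -1.51 ± 0.15 at 480 µg/ml (adjusted p = 0.000382). ACACA, the carboxylase that commits acetyl-CoA to fatty acids, had 53.9 and 59.3 CPM untreated, 49.6 and 56.3 CPM at 24 µg/ml, 33.2 and 35.6 CPM at 240 µg/ml and 35.6 and 32.8 CPM at 480 µg/ml. It fell by the same amount at the 2 higher doses within error (-0.72 ± 0.13, adjusted p = 0.012, and -0.73 ± 0.13, adjusted p = 0.00359). ME1, malic enzyme, which supplies reducing power, had 45.4 CPM in both untreated libraries, 37.0 and 31.5 CPM at 24 µg/ml, 34.1 and 26.5 CPM at 240 µg/ml and 33.9 and 31.2 CPM at 480 µg/ml. All treated libraries were lower, and ME1 fell at 240 µg/ml (-0.58 ± 0.15, adjusted p = 0.0429) and 480 µg/ml (-0.48 ± 0.15, adjusted p = 0.0431).

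The genes that supply cytosolic acetyl-CoA were not called at any dose. ACLY, ATP citrate lyase, had 221 and 223 CPM untreated and 203 and 200 CPM at 480 µg/ml (-0.14 ± 0.12, adjusted p = 0.392). ACSS2, which activates acetate, had 55.9 and 54.6 CPM untreated and 51.7 and 63.6 CPM at 480 µg/ml (0.06 ± 0.14, adjusted p = 0.779). These estimates were smaller than those of ACACA and FASN downstream, and the difference between genes was not tested. At 480 µg/ml the call of ME1 was lost without control replicate 1 or 2 (adjusted p = 0.167 and 0.171), either library of 24 µg/ml (0.0654 and 0.0646) or 480 µg/ml replicate 2 (0.0645).

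Among the 6 genes of desaturation and elongation, 4 fell and 1 rose at 480 µg/ml, and 2 fell and 1 rose at 240 µg/ml. For comparison, the highest dose lowered 13.9% of all tested genes and raised 13.9% of them. With the middle dose these shares were 5.17% lower and 5.16% higher. The 1 of 6 that rose with the highest dose was thus near the share of all tested genes. SCD had 752 and 900 CPM untreated, 685 and 710 CPM at 24 µg/ml, 507 and 417 CPM at 240 µg/ml and 495 and 380 CPM at 480 µg/ml. It fell by 0.84 ± 0.16 at 240 µg/ml (adjusted p = 0.0178) and by 0.92 ± 0.16 at 480 µg/ml (adjusted p = 0.00416), with the 2 doses overlapping. FADS1, a desaturase of polyunsaturated fatty acids, had 123 and 147 CPM untreated, 115 and 119 CPM at 24 µg/ml, 105 and 97.1 CPM at 240 µg/ml and 97.9 and 89.7 CPM at 480 µg/ml. FADS2, which acts in the same chain, had 165 and 182 CPM untreated, 147 and 146 CPM at 24 µg/ml, 133 and 138 CPM at 240 µg/ml and 92.8 and 130.4 CPM at 480 µg/ml. Both fell at 480 µg/ml (-0.52 ± 0.13, adjusted p = 0.0163, and -0.64 ± 0.16, adjusted p = 0.0181). ELOVL5, an elongase of polyunsaturated chains, was not called (0.34 ± 0.20, adjusted p = 0.236). The call of FADS1 was lost without control replicate 2 (adjusted p = 0.164), and that of FADS2 without control replicate 1 or 2 (adjusted p = 0.0633 and 0.118).

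The elongases ELOVL6 and ELOVL4 moved apart. ELOVL6, which extends the products of FASN, had 56.5 and 64.8 CPM untreated, 50.5 and 49.2 CPM at 24 µg/ml, 41.7 and 38.5 CPM at 240 µg/ml and 37.0 and 31.7 CPM at 480 µg/ml. Each dose lay below the one before without overlap (-0.60 ± 0.13, adjusted p = 0.0258, at 240 µg/ml and -0.82 ± 0.13, adjusted p = 0.0026, at 480 µg/ml). ELOVL4 had 2.19 and 2.09 CPM untreated, 2.76 and 3.19 CPM at 24 µg/ml, 6.22 and 5.56 CPM at 240 µg/ml and 13.02 and 11.9 CPM at 480 µg/ml. Its level was higher at each dose without overlap, and the rise at 480 µg/ml was the largest of the 36 genes, with log2 fold changes of 0.47 ± 0.17 (adjusted p = 1), 1.46 ± 0.17 (adjusted p = 0.00275) and 2.54 ± 0.17 (adjusted p = 0.000105). Per length, ELOVL4 stood at 0.0829 and 0.0693 of the level of ELOVL6 in the untreated libraries and at 0.761 and 0.812 of it at 480 µg/ml.

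**Figure D3:**
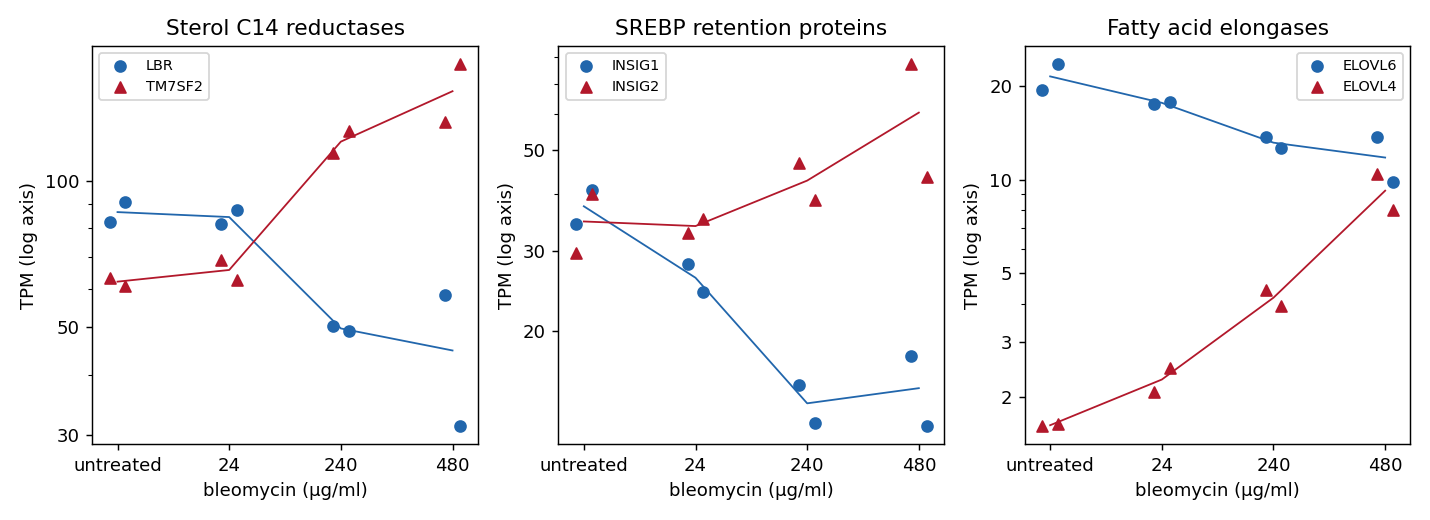
TPM (log axis) of 3 pairs of related genes by dose, with 1 point per library and lines through the mean of the 2 libraries. In each pair the mean of the first gene (LBR, INSIG1, ELOVL6) is lower and that of the second (TM7SF2, INSIG2, ELOVL4) higher at 240 and 480 µg/ml than untreated; the libraries of 480 µg/ml are far apart for LBR, TM7SF2 and INSIG2.

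Between doses, 4 of the 36 genes fell and 2 rose from 24 to 240 µg/ml, against 3.49% of all tested genes lower and 3.34% higher. Those that fell were FASN (-0.87 ± 0.15, adjusted p = 0.0176), INSIG1 (-0.80 ± 0.16, adjusted p = 0.0246), ACACA (-0.62 ± 0.13, adjusted p = 0.0273) and DHCR7 (-0.61 ± 0.15, adjusted p = 0.0417). Those that rose were TM7SF2 (1.00 ± 0.21, adjusted p = 0.029) and ELOVL4 (0.98 ± 0.16, adjusted p = 0.0153). With the replicate number as a block, 2 fell and 1 rose. None of these calls held without either library of 24 µg/ml or of 240 µg/ml. Those of TM7SF2, DHCR7, INSIG1 and ACACA also did not hold without either untreated library, which is outside the comparison. By limma on TPM, ACACA and ELOVL4 were not called (adjusted p = 0.0749 and 0.0739). From 240 to 480 µg/ml ELOVL4 rose (1.08 ± 0.16, adjusted p = 0.0402) and 0 members fell, against 0.0273% of all tested genes higher and 0.229% lower. DHCR7 (-0.54 ± 0.15, adjusted p = 0.207) and FASN (-0.54 ± 0.15, adjusted p = 0.215) were not called in that step. The call of ELOVL4 in it was lost with the block, by limma, from the 2 groups alone and without any library of the untreated, 24 or 240 µg/ml groups, its log2 fold change staying between 0.97 and 1.16 over the alternatives. At 24 µg/ml, where nothing was called, 24 of the 36 genes had both libraries below both untreated ones, against 17.8% of all tested genes. MSMO1, MVK (-0.59 ± 0.21, adjusted p = 1), INSIG1, HMGCS1, SQLE (-0.43 ± 0.15, adjusted p = 1), ME1 (-0.41 ± 0.15, adjusted p = 1), CYP51A1 (-0.40 ± 0.14, adjusted p = 1), ACAT2 (-0.39 ± 0.15, adjusted p = 1) and IDI1 (-0.37 ± 0.12, adjusted p = 1) were the 9 with the lowest values.

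The calls differed in how far they rested on single libraries. At 480 µg/ml 10 of the 19 genes that fell were called in all 15 alternatives: ACAT2, HMGCS1, SQLE, LBR, DHCR7, INSIG1, ACACA, FASN, SCD and ELOVL6. So were TM7SF2 and ELOVL4 of the 4 that rose. With edgeR fitted to the 2 groups alone, FDPS, FDFT1, CYP51A1, EBP and SC5D were not called (adjusted p from 0.0543 to 0.125). Neither were INSIG2, SREBF2, ME1, FADS1 and FADS2 (adjusted p from 0.0533 to 0.089). By limma on TPM, CYP51A1, SC5D, INSIG2 and ME1 were not called (adjusted p from 0.0688 to 0.12). The edgeR fit with a replicate block did not call CYP51A1 (adjusted p = 0.0564). At 240 µg/ml ELOVL4 was the only member called in every alternative. With 1 library left out, the number of members called at 240 and 480 µg/ml changed, and so did that of all genes called. The ranges of both are given at the end, and the shift in the members alone was not tested.

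Other lipid genes, from lists on the same pathways, were counted at 480 µg/ml, where 13.9% of all tested genes fell and 13.9% rose. No difference between these lists and the synthesis genes was tested. Of 15 genes of sterol uptake, export and storage, 4 rose and 1 fell at 480 µg/ml, with a median log2 fold change of 0.30 (0.01 over all tested genes). LIPA, the lysosomal acid lipase that frees cholesterol from its esters (1.01 ± 0.18, adjusted p = 0.00411), ABCG1, a sterol exporter (1.00 ± 0.23, adjusted p = 0.0118), NPC2, which carries cholesterol out of lysosomes (0.55 ± 0.13, adjusted p = 0.0138), and MYLIP, a ubiquitin ligase of lipoprotein receptors (0.48 ± 0.14, adjusted p = 0.0331), rose. TMEM97, a membrane protein gene induced when sterols are low, fell from 70.3 and 66.9 CPM to 29.4 and 32.6 CPM (-1.14 ± 0.12, adjusted p = 0.000473). ABCA1, another sterol exporter, was not called (0.33 ± 0.20, adjusted p = 0.245). Of 9 genes of SREBP processing and degradation 3 rose, among them MBTPS1, the protease that makes the first cut in SREBP (0.49 ± 0.11, adjusted p = 0.0109), MBTPS2, the protease of the next cut (0.53 ± 0.17, adjusted p = 0.0479), and ERLIN2 (0.62 ± 0.12, adjusted p = 0.00707).

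In the isoprenoid branch 1 of 11 genes rose (RABGGTA, 1.00 ± 0.16, adjusted p = 0.0027) and 1 fell (PDSS1, which starts the ubiquinone side chain, -1.14 ± 0.20, adjusted p = 0.00351). Of 26 tested genes of other fatty acid and glyceride synthesis 3 rose and 4 fell, shares near those of all tested genes, with a median of -0.02. ACSL5, a fatty acid activating enzyme (-1.67 ± 0.28, adjusted p = 0.00318), AGPAT2, of glyceride synthesis (-1.18 ± 0.20, adjusted p = 0.00307), PNPLA3 (-0.98 ± 0.16, adjusted p = 0.00287) and DGAT2, of triglyceride synthesis (-0.71 ± 0.23, adjusted p = 0.0461), fell, while FADS3 (1.60 ± 0.23, adjusted p = 0.00147), ACSL1, another activating enzyme (1.19 ± 0.20, adjusted p = 0.00293), and the desaturase gene SCD5 (0.66 ± 0.15, adjusted p = 0.0105) rose. LPIN1, a phosphatase of glyceride synthesis, was not called (0.19 ± 0.18, adjusted p = 0.477). Of 22 genes of fatty acid breakdown 6 rose and 2 fell, with a median of 0.13. DECR1 (0.76 ± 0.11, adjusted p = 0.00179), CPT2 (0.76 ± 0.13, adjusted p = 0.00291), ACADVL (0.56 ± 0.12, adjusted p = 0.0101) and CPT1A (1.03 ± 0.25, adjusted p = 0.016), which serve fatty acid oxidation in mitochondria, rose, and PPARA, a receptor that drives oxidation genes (-1.01 ± 0.19, adjusted p = 0.00573), and HADH (-0.48 ± 0.12, adjusted p = 0.0158) fell. CPT1A rose from a low level, 1.35 and 1.45 CPM untreated to 3.21 and 2.51 CPM.

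**Figure D4:**
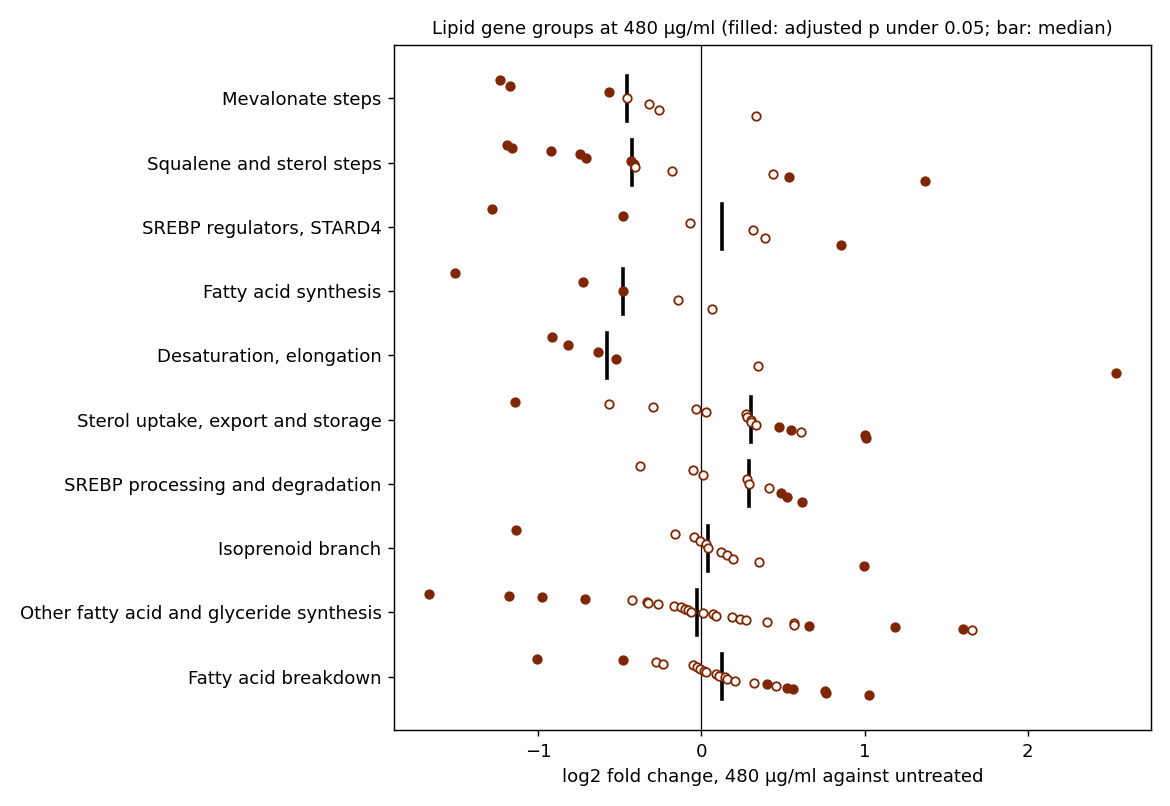
Log2 fold change at 480 µg/ml against untreated cells (x axis) for every tested gene of 10 lipid gene groups, with 1 point per gene, filled where the adjusted p is under 0.05, and a bar at the group's median. The medians of the mevalonate, sterol, fatty acid synthesis and desaturation groups lie between -0.42 and -0.58, and those of the other groups between -0.02 and 0.30.

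Other measures also differed between the groups. The share of all tested genes at 480 µg/ml was 13.9% lower and 13.9% higher. Of 12 markers of dividing cells 11 fell and 1 rose at 480 µg/ml, and their summed level was 695 and 749 TPM untreated, 729 and 810 TPM at 24 µg/ml, 507 and 471 TPM at 240 µg/ml and 413 and 301 TPM at 480 µg/ml. The sum includes TYMS, which rose, and the median log2 fold change of the 12 was -1.61 at 480 µg/ml. Of 14 hepatic markers 5 rose and 0 fell at 480 µg/ml. Their summed level was 60527 and 65056 TPM untreated, 66824 and 46719 TPM at 24 µg/ml, 93307 and 84054 TPM at 240 µg/ml and 85925 and 72291 TPM at 480 µg/ml, highest at 240 µg/ml. Of 12 tested intestinal markers 2 rose, near the share of all tested genes, and 5 fell at 480 µg/ml. Among 9 tested type 2 alveolar markers 1 rose, again near that share, and 5 fell, with summed levels of 79.0 and 67.6 TPM. Of 9 mesenchymal markers 6 fell and 0 rose. Mitochondrially encoded genes took 1.53% and 1.59% of counts untreated, then 1.06% and 1.52% with 24 µg/ml, 2.06% and 1.74% with 240 µg/ml, and 1.70% and 3.02% with 480 µg/ml, in no steady order by dose. Nuclear genes of ribosomal RNA took 2.93% of the counts of replicate 1 at 24 µg/ml and 3.30% of those of replicate 2 at 480 µg/ml, against 1.21% to 1.78% elsewhere. The part of these differences in the changes of the lipid genes was not tested.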

How the data were processed

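Messenger RNA libraries (TruSeq stranded, per the labels' protocols) were sequenced from 8 samples in 4 groups. The deposited tables give, per gene symbol and library, whole-number read counts with no normalization and TPM values, which the authors scaled to gene length and a common total. Trimmomatic, HISAT2, Bowtie2, StringTie and GRCh38 are named in the submitters' processing notes without role or version, and the annotation and the strand counted are not given in the sources used here. A deposited FPKM table was not used. The member genes and the lists were chosen with earlier results of these data known.

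Counts were compared with edgeR 4.0.16 (R 4.3.3): TMM factors, filterByExpr (at least 10 counts and 15 in total), and 1 quasi-likelihood model of the 8 libraries by group (4 residual and 4.98 prior degrees of freedom), with Benjamini-Hochberg adjustment over 18303 genes at a threshold of 0.05. The 5 comparisons were of each dose with untreated cells, of 240 with 24 µg/ml and of 480 with 240 µg/ml. The SE is the log2 fold change divided by the square root of F, and CPM uses TMM-scaled library sizes. It rests on 1 estimate of spread per gene shared by the 4 groups. The wider spread between the libraries of 480 µg/ml is therefore not shown by the SE at that dose. Total counts of 53431773 to 67715984 put the value of 3 counts at 0.0443 to 0.0561 CPM, which covers counting error only. Every member could be named, since the list was given, and of the other pathway lists up to 4 called genes in each direction by smallest p and 6 fixed genes.

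Because strand is not given, reads of 14 members cannot be told apart from those of opposite-strand genes that share exonic bases in GENCODE 29: ACAT2 (with TCP1 and SOD2), HMGCS1, MVK, IDI1, FDPS, FDFT1, LSS, CYP51A1, SREBF1, SREBF2, STARD4, ACLY, and FADS1 and FADS2 with each other. CYP51A1 shares 2844 exonic bases with a same-strand gene, and FDPS, CYP51A1, HSD17B7, SCD and IDI1 have pseudogene copies in the table, so their values are uncertain to that extent. Alternatives were DESeq2 1.42.0, RLE factors, no filter, a filter of 50 counts in 2 libraries, a fit to 2 groups at a time, a block for replicate number, limma 3.58.1 applied to log2(TPM + 1), and omission of each library in turn.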

Additional observations from a re-analysis of the deposited data

How the results depend on the processing

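Of 1425 recomputed values of named genes (95 values under 15 alternatives), 1181 kept their direction and their side of the threshold, 168 kept their direction and lost the call, 62 gained one and 14 changed sign. Those 14 had no call to lose. Over the omission of each library in turn, the log2 fold changes of the genes concerned ran as follows. At 240 µg/ml MVD ran from -0.227 to 0.068, SC5D from -0.046 to 0.252, ACSS2 from -0.040 to 0.124 and ELOVL5 from -0.345 to 0.142. At 480 µg/ml LSS ran from -0.447 to 0.036, SREBF1 from -0.452 to 0.216, STARD4 from -0.124 to 0.650 and ACSS2 from -0.095 to 0.191. DHCR7 at 24 µg/ml ran from -0.151 to 0.071 and MSMO1 between 24 and 240 µg/ml from -0.141 to 0.161. By limma ACSS2 was at -0.066 at 240 µg/ml and MSMO1 at -0.094 between 24 and 240 µg/ml. ELOVL5 was at 0.080 without control replicate 2, and MSMO1 at -0.107 without 24 µg/ml replicate 2.

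From the 2 groups compared alone, 14, 5399 and 2858 genes were called at 24, 240 and 480 µg/ml, 4341 from 24 to 240 and 0 from 240 to 480 µg/ml. In that fit 5 members rose at 240 µg/ml, 11 fell and 2 rose at 480 µg/ml, 12 fell from 24 to 240 µg/ml and 0 rose from 240 to 480 µg/ml. With no filter on low counts 83 genes were called at 24 µg/ml, 2907 at 240 µg/ml, 2375 from 24 to 240 and 465 from 240 to 480 µg/ml, and 8 and 2 members fell in those steps. DESeq2 called 36 genes at 24 µg/ml and 2015 and 324 in the steps, with 8 and 2 members lower. limma on TPM called 783 and 11 genes in the steps, 2 members higher at 480 µg/ml, and 1 and 0 higher in the steps. Deviations of same-numbered libraries correlated between -0.080 and 0.045 in the 6 pairs of groups, so no effect shared by replicate number was seen. This does not show whether same-numbered libraries were paired by culture. With the replicate block 621 genes were called from 24 to 240 µg/ml (2 members lower and 1 higher) and 8 from 240 to 480 µg/ml (0 members higher). The cause was not tested.

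Leaving out 1 library at a time left a group with 1 library, assumed to vary like the others, and gave 0 to 24 genes at 24 µg/ml, 120 to 4982 at 240 µg/ml, 2248 to 7889 at 480 µg/ml, 0 to 4630 from 24 to 240 and 0 to 1471 from 240 to 480 µg/ml. Members lower numbered 0 to 21 at 240 µg/ml, 10 to 22 at 480 µg/ml, 0 to 12 from 24 to 240 and 0 to 6 from 240 to 480 µg/ml, and members higher 1 to 5, 2 to 7, 0 to 4 and 0 to 4. Scaling moved the median of all genes by less than 0.1 on the log2 scale.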
